A study of Mus with 4 samples.

Results

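The expression of 53 genes of traffic between the endoplasmic reticulum (ER) and the Golgi apparatus was compared between podocytes, the filtering epithelial cells of the kidney glomerulus, with and without overexpression of OASIS/CREB3L1. The genes were taken by name from the deposited array table, as a set drawn up with earlier results of these data known, and all 53 were among the 16318 genes tested. They comprised 9 subunits of the COPI coat, 2 Arf GTPases, 3 KDEL receptors, 8 genes of the Tmed family, 7 other cargo receptors, 11 SNAREs, 5 factors of ER exit sites and 8 tethers. The COPII coat itself was not among them.

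All samples came from a single immortalized murine podocyte cell line, differentiated for 10 to 14 days at 37 °C in the absence of interferon-γ. In both groups the cells were given lentivirus for 24 h at a multiplicity of infection of 200 to 500 with polybrene at 8 µg/mL, and RNA was taken 48 h after the vectors were added. The 2 control samples received a vector for Venus, a fluorescent protein, and the 2 OASIS samples a vector for the N-terminal, active fragment of OASIS, which lacks the part that anchors the factor in the ER membrane. Each sample had its own 1-colour array, and the vector backbone named in the methods was pCSII-EF, so that the insert was driven by a general promoter and not by one of podocytes. The labels do not say whether samples of a group came from separate cultures, so that the p-values measure the spread between these samples, which may be technical.

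The 4 arrays lay on 1 slide read in 1 scan, and between 33938 and 34418 of 59305 spots per array were well above background. The array carries 1 probe for Creb3l1, the overexpressed gene, with normalized log2 intensities of 0.71 and 0.72 with Venus and 0.61 and 0.49 with OASIS (limma adjusted p = 0.298). Since the place of this probe on the transcript is not known here, it does not check the labels. Of 9 podocyte markers looked for, 7 were well above background on both arrays of each group, whereas Nphs1 (nephrin) and Ptpro were not in either group. The summed level of the podocyte markers, in multiples of the 75th percentile of each array, was 51.4 to 54.2 with Venus and 51.4 to 54.9 with OASIS, with Actn4 and Synpo as the brightest. This sum hides single markers that moved, such as Wt1. Its probe A_55_P1953143 had a log2 fold change of 4.62 (limma adjusted p = 0.00215), from a dim mean of -5.53 with Venus to -0.91 with OASIS. The other Wt1 probe, which was the brighter of the 2 with Venus at a mean of -4.80, had -0.16. The corresponding sums were 6.53 to 6.98 against 3.41 to 4.10 for 5 mesangial markers, of which 4 and 3 were detected with Venus and OASIS, and 17.5 to 18.5 against 14.3 to 14.6 for 5 macrophage markers, of which 4 were detected in each group and Adgre1 in neither. Most of the mesangial difference was Ren1, at -2.90 on the log2 scale (limma adjusted p = 0.00252), whereas Pdgfrb stood at -0.097 (limma adjusted p = 0.716). The sums were 21.6 to 29.5 against 22.1 to 37.7 for 5 proximal tubule markers, and at most 0.048 in any array for 5 endothelial markers, of which only Pecam1 was detected. The part of these differences in the results that follow was not tested, and in bulk RNA fewer cells of a type cannot be told apart from less RNA per cell.

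Proteins made in the ER leave it at exit sites in COPII vesicles, pass an intermediate compartment and fuse with the cis-Golgi. COPI vesicles carry escaped ER residents, cargo receptors and SNAREs back. Cargo receptors and Tmed proteins pick what is loaded, tethers catch the vesicle at its target, and SNAREs drive fusion of the membranes. OASIS belongs to a family of ER-anchored transcription factors that are released by cleavage in the Golgi, and members of this family are known for raising genes of the secretory pathway in cells that secrete large amounts of matrix or hormone.

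Members from each of the 8 sub-groups were higher in the OASIS-overexpressing podocytes, and the largest rises were in Sec16b, Bet1, Surf4, Copz2 and Kdelr3. The study's threshold was a fold over 2.0 or under 0.5 with an adjusted p under 0.1, here from limma, with the p-values of all 31598 probes tested adjusted by the Benjamini-Hochberg method, and each gene was read by its brightest tested probe. By this threshold 17 of the 53 genes were higher and 0 lower (16 and 0 where a probe had to be well above background on all 4 arrays, which leaves out Sec16b), while 6.21% of all genes tested were higher and 1.85% lower. The methods name no test for the arrays, but Student's t-test is among those they name for 2 groups in general. With this t-test, called the methods' t-test here, in place of limma 9 of the 17 passed, and the adjusted p of the other 8 lay between 0.101 and 0.141. A gene is said to have risen or fallen where its adjusted p was under 0.1, whatever the size of its change. In this sense 39 members rose (38 with detection required on all 4 arrays) and 3 fell, against 18.6% and 18.1% of all genes. The other 11 members had an adjusted p of 0.1 or more. These counts became 13 and 0 with the methods' t-test, 23 and 0 without Venus replicate 1 and 24 and 0 without Venus replicate 2. Both OASIS arrays lay above both Venus arrays for 40 members, an arrangement that held for 31.5% of all genes, and below both for 9 members, which held for 39.4% of all genes. The other 4 members overlapped between groups. The median log2 fold change was 0.67 over the members and -0.056 over all genes tested. Positions were given for 52 of the members, and they lay on 19 chromosomes and in 45 cytogenetic bands, so that no more than 2 members shared a band. The bands are those of the deposited table, and the array design names the mouse build mm9.

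**Figure D1:**
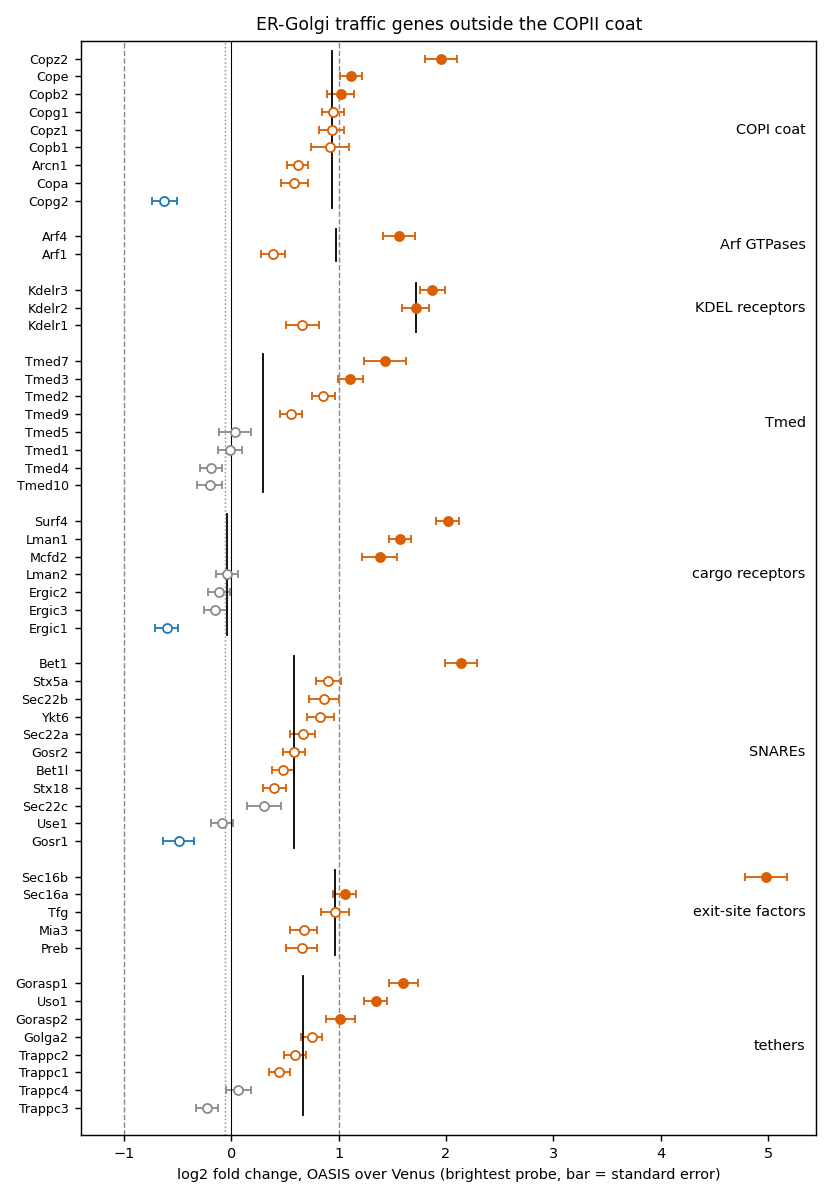
The log2 fold change of OASIS over Venus by the brightest probe is plotted on the horizontal axis for each of the 53 genes, ordered by sub-group, with its standard error as a bar (2 arrays against 2). Orange genes rose and blue genes fell at an adjusted p under 0.1, grey genes did neither, and filled circles passed the 2-fold limit as well. Black vertical lines are sub-group medians, the dotted line is the median of all genes, and dashed lines are the 2-fold limits. All 17 filled circles lie to the right, from Gorasp2 at 1.01 upwards. Sec16b is drawn at its measured 4.98, although it was not well above background with Venus and its size depends on the floor taken there.

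The 2 Venus arrays lay close together for these genes, with a median absolute difference of 0.061 on the log2 scale, and the 2 OASIS arrays less so, with 0.16. OASIS replicate 1 was the higher of the OASIS pair for 46 of the 53 members and for 15 of the 17 past the threshold, Bet1 and Tmed7 being the exceptions. Over all genes tested it was the higher one for 52.6%. The 2-fold limit fell among closely spaced genes. With log2 fold changes between 1 and 1.2 there were 5 members (Cope, Tmed3, Sec16a, Copb2 and Gorasp2), and between 0.8 and 1 there were 8, whose adjusted p-values were also under 0.1.

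**Figure D2:**
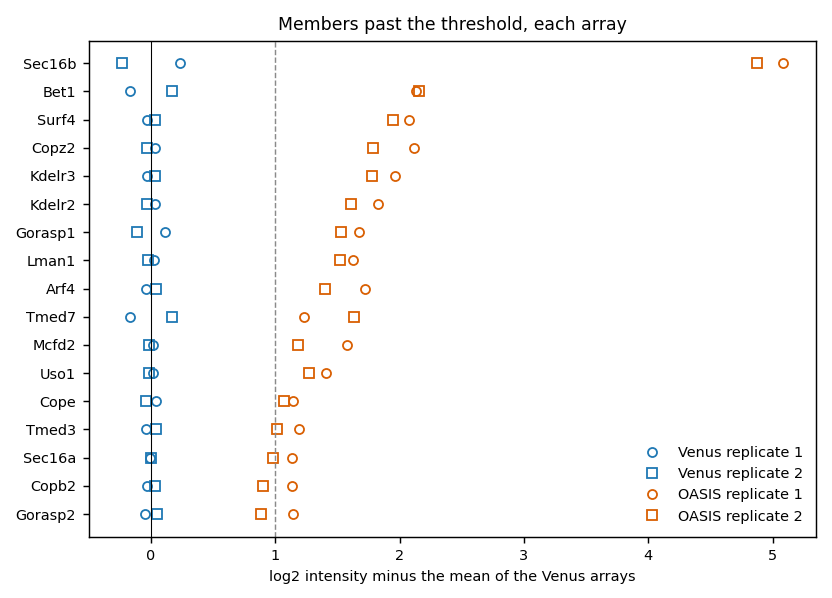
For the 17 genes past the threshold (Sec16b with Venus values not well above background), the log2 intensity on each array minus the mean of the 2 Venus arrays is plotted on the horizontal axis, with circles for replicate 1, squares for replicate 2, blue for Venus and orange for OASIS. The groups do not overlap for any of these genes, but the threshold that picked them makes this nearly certain. Over all genes tested, both OASIS arrays lay above both Venus arrays for 31.5%. For Sec16a, Copb2 and Gorasp2 OASIS replicate 2 lies below the 2-fold limit, which is dashed.

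The COPI coat, or coatomer, is a complex that is recruited to Golgi membranes as a unit and buds vesicles for the way back to the ER. Of its 9 genes, 8 rose and 1 fell, against 18.6% and 18.1% of all genes tested, with a median log2 fold change of 0.93. Copz2, an alternative ζ subunit (chromosome 11, band qD), rose most. Its normalized log2 intensity was 1.31 and 1.25 with Venus and 3.40 and 3.07 with OASIS, a log2 fold change of 1.95 (standard error of the difference, SE, 0.15; limma adjusted p = 0.00519), with 2.01 and 1.69 for the dimmer 2 probes. By each of the 3 probes both OASIS arrays lay above both Venus arrays, which held by the brightest probe for 31.5% of all genes tested. Cope, the ε subunit (chromosome 8, band qB3.3), read 2.30 and 2.22 with Venus and 3.41 and 3.34 with OASIS, a log2 fold change of 1.11 (SE 0.10, limma adjusted p = 0.00697). Copb2, the β′ subunit (chromosome 9, band qE3.3), read 3.36 and 3.43 with Venus and 4.53 and 4.30 with OASIS, a log2 fold change of 1.02 (SE 0.13, limma adjusted p = 0.0115). Copb2 stood just above the 2-fold limit. It fell under it without Venus replicate 1 (0.98), without OASIS replicate 1 (0.90), with quantile normalization (0.987) and with scaling of each array to its median (0.996), and its dimmer probe gave 0.38, with an adjusted p of 0.164 by limma.

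The next 5 coat genes rose by log2 fold changes of 0.58 to 0.95, short of 2-fold. Copb1 reached 1.14 and Copz1 1.04 when OASIS replicate 2 was left out. Arcn1, the δ subunit, differed by probe: 0.62 for the brightest, 0.54 for another and 1.01 (limma adjusted p = 0.00736) for the one between them in brightness, which passed the threshold. Copg2, an alternative γ subunit (chromosome 6, band qA3.3), went the other way. It read 1.51 and 1.66 with Venus and 1.01 and 0.90 with OASIS, a log2 fold change of -0.63 (SE 0.12, limma adjusted p = 0.0258), and its second probe gave -0.41. Copg2 was the 1 coat gene for which both OASIS arrays lay below both Venus arrays, as they did for 39.4% of all genes tested.

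Arf GTPases, in their GTP-bound form, bring coatomer to the membrane. Arf4 (chromosome 14, band qA3) read 4.02 and 4.10 with Venus and 5.79 and 5.46 with OASIS, a log2 fold change of 1.56 (SE 0.15, limma adjusted p = 0.00709). Arf1, the family member best known for recruiting COPI, rose by less, from 5.69 and 5.66 to 6.14 and 5.98, a log2 fold change of 0.39 (SE 0.11, limma adjusted p = 0.0676). For both genes both OASIS arrays lay above both Venus arrays, as for 31.5% of all genes tested, and each was read by a single probe.

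KDEL receptors bind the retrieval signal of ER chaperones that have reached the Golgi and return them in COPI vesicles. All 3 rose, against 18.6% of all genes tested, and their median log2 fold change of 1.72 was the highest of the 8 sub-groups. Kdelr3 (chromosome 15, band qE1) read 2.31 and 2.37 with Venus and 4.30 and 4.12 with OASIS, a log2 fold change of 1.87 (SE 0.12, limma adjusted p = 0.00369). Kdelr2 (chromosome 5, band qG2) read 1.99 and 1.92 with Venus and 3.78 and 3.56 with OASIS, a log2 fold change of 1.72 (SE 0.12, limma adjusted p = 0.00467). Kdelr1 (chromosome 7, band qB4) moved less and was less even between the OASIS arrays, from 1.31 and 1.30 to 2.15 and 1.78, a log2 fold change of 0.66 (SE 0.16, limma adjusted p = 0.0444). Each KDEL receptor gene had 1 probe, so that no second reading within the array is given.

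The Tmed, or p24, proteins cycle between ER and Golgi, form complexes with each other and act as cargo adaptors, among others for GPI-anchored proteins. By the brightest probe this family was divided. Of 8 genes, 4 rose (Tmed7, Tmed3, Tmed2 and Tmed9), against 18.6% of all genes tested. The other 4 had limma adjusted p-values between 0.230 and 0.934, so that the median log2 fold change was 0.29. Tmed7 (chromosome 18, band qC) read 1.17 and 1.51 with Venus and 2.57 and 2.97 with OASIS, a log2 fold change of 1.43 (SE 0.20, limma adjusted p = 0.014). The spread within each group was wide for Tmed7, yet the lowest OASIS value stood 1.06 above the highest Venus value. Tmed3 (chromosome 9, band qE3.1) read 3.95 and 4.04 with Venus and 5.19 and 5.01 with OASIS, a log2 fold change of 1.10 (SE 0.12, limma adjusted p = 0.00837), whereas its far dimmer second probe gave 0.22 (limma adjusted p = 0.502) and the mean of both 0.66. At the low end, Tmed10, a core member of the p24 complexes, read 5.262 and 5.264 with Venus and 5.15 and 4.97 with OASIS, a log2 fold change of -0.20 that did not pass the test (SE 0.11, limma adjusted p = 0.248).

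Tmed5 was the member whose probes differed most. Its brightest probe read 1.18 and 1.33 with Venus and 1.14 and 1.44 with OASIS, a log2 fold change of 0.033 (limma adjusted p = 0.889), and the groups overlapped. Another probe, A_55_P2105351, read -4.50 and -4.32 with Venus and -1.71 and -1.94 with OASIS, a log2 fold change of 2.58 (SE 0.13, limma adjusted p = 0.00276). The second-brightest probe, A_55_P2105346, went the other way, at -0.50 (limma adjusted p = 0.0863). The rest lay between -0.35 and 0.29. Which transcript forms the probes read was not analysed here, and the dim probe A_55_P2105351 carried a change that none of the other probes showed.

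The other cargo receptors were split. Of the 7 genes, Surf4, Lman1 and Mcfd2 rose past the threshold, against 6.21% of all genes tested. Ergic1 fell, as did 18.1% of all genes, and 3 genes had limma adjusted p-values between 0.350 and 0.804. The median log2 fold change of the sub-group was -0.041. Surf4, a receptor for a range of soluble secreted proteins (chromosome 2, band qA3), read 3.55 and 3.61 with Venus and 5.66 and 5.53 with OASIS, a log2 fold change of 2.01 (SE 0.11, limma adjusted p = 0.00286). Lman1 (chromosome 18, band qE1) and Mcfd2 (chromosome 17, band qE4) encode the lectin and its calcium-binding partner that together export coagulation factors from the ER. Lman1 read 3.048 and 3.002 with Venus and 4.65 and 4.54 with OASIS, a log2 fold change of 1.57 (SE 0.10, limma adjusted p = 0.00413). A second Lman1 probe was nearly as bright with Venus, at 2.92 and 2.87, and gave 0.62 (limma adjusted p = 0.0477), short of 2-fold. Mcfd2 read 4.43 and 4.40 with Venus and 5.99 and 5.59 with OASIS, a log2 fold change of 1.38 (SE 0.16, limma adjusted p = 0.0107), and a second probe gave 1.63. All 3 receptors, which the threshold had picked, were above the Venus arrays on both OASIS arrays, as were 31.5% of all genes tested.

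Ergic1, Ergic2 and Ergic3 encode related proteins of the ER-Golgi intermediate compartment. Ergic1 (chromosome 17, band qA3.3) read 2.72 and 2.75 with Venus and 2.20 and 2.06 with OASIS, a log2 fold change of -0.60 (SE 0.11, limma adjusted p = 0.0239). Its dim second probe gave -1.99 (limma adjusted p = 0.0591) and was the 1 tested probe of any member past the threshold in the lower direction. That probe was not well above background with OASIS and was tested through the Venus arrays alone. The size of its change is therefore uncertain, and its p-value and call are no further support. Set against the dimmest level well above background on the OASIS arrays, the probe was 1.54-fold lower with OASIS. Ergic2 and Ergic3 had log2 fold changes of -0.12 and -0.15 and did not pass the test (limma adjusted p = 0.449 and 0.350).

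Lman2, a lectin related to Lman1, depended on the probe. Its brightest probe read 4.97 and 4.86 with Venus and 4.90 and 4.85 with OASIS, a log2 fold change of -0.041 (SE 0.11, limma adjusted p = 0.804), with the groups overlapping. A dimmer probe annotated to a RefSeq transcript, A_52_P112651, read -2.21 and -2.10 with Venus and -0.86 and -0.70 with OASIS, a log2 fold change of 1.38 (SE 0.12, limma adjusted p = 0.00629), and the last one gave 0.36. With the mean of its probes in place of the brightest, Lman2 stood at 0.57 and the median of the 7 cargo receptors at 0.57 as well.

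SNAREs are the membrane proteins that pair across vesicle and target. Of 11 genes, 8 rose, 1 fell and 2 did not pass the test, with a median log2 fold change of 0.58. Over all genes tested 18.6% rose and 18.1% fell. Bet1 (chromosome 6, band qA1), a SNARE of vesicles arriving from the ER, was the 1 gene past the threshold by its brightest probe. For the threshold, 1 of 11 genes is near the 6.21% of all genes tested. Bet1 read -1.497 and -1.159 with Venus and 0.80 and 0.82 with OASIS, a log2 fold change of 2.14 (SE 0.15, limma adjusted p = 0.00447). Its OASIS arrays were nearly equal and both lay 1.96 or more above the Venus arrays. The other 7 SNAREs that rose did so by 0.40 to 0.90, among them Stx5a, the syntaxin of the cis-Golgi that Bet1 pairs with, at 0.90 by its brighter probe and 0.91 by the other.

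Sec22b, which pairs with the same syntaxin, was past the threshold by the dimmer 2 of its 3 probes. The brightest read 4.22 and 4.12 with Venus and 5.18 and 4.89 with OASIS, a log2 fold change of 0.86 (SE 0.14, limma adjusted p = 0.019). The dimmer ones gave 1.90 and 2.03 (limma adjusted p = 0.00325 and 0.00705), and without OASIS replicate 2 the brightest gave 1.01. All 3 probes of Sec22b rose, by different amounts. Gosr1 (chromosome 11, band qB5), a SNARE of traffic within the Golgi, fell, from 1.193 and 1.179 with Venus to 0.86 and 0.53 with OASIS, a log2 fold change of -0.49 (SE 0.15, limma adjusted p = 0.0735). The OASIS arrays differed from each other by about as much as the gap of 0.32 between the groups.

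ER exit sites are the patches of ER membrane where COPII vesicles form. All 5 of their factors rose, against 18.6% of all genes tested, with a median log2 fold change of 0.97. Among the 5, Sec16b was tested through the OASIS arrays alone. Without it, where detection was required on all 4 arrays, the median was 0.82. Sec16a and Sec16b are scaffolds of these sites, and they stood far apart. Sec16b (chromosome 1, band qH1) read -6.33 and -6.80 on the Venus arrays, where it was not well above background, and -1.48 and -1.69 on the OASIS arrays, where it was. Set against a floor for the Venus arrays, it was 23.3-fold higher with OASIS. The limma adjusted p of the measured values was 0.0019. For this floor, the level on each Venus array was set to that of the dimmest probe well above background, or to the Sec16b value itself where that was higher, and averaged. The fold depends on this choice and is not a strict lower limit. The measured log2 fold change of 4.98 fell to 2.30 with normexp background correction, so that the size of the rise depends on the processing. Its direction and call held in all 17 alternatives that gave a value. However, the probe was tested through the OASIS arrays alone, so that its p-value and these calls are no further support. Sec16b was the 1 member of the 53 whose brightest probe was not detected in the control cells.

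Sec16a (chromosome 2, band qA3) was well above background in both groups. It read 2.62 and 2.63 with Venus and 3.76 and 3.61 with OASIS, a log2 fold change of 1.05 (SE 0.11, limma adjusted p = 0.0082), while the other 2 probes gave 0.46 and 1.91. Without OASIS replicate 1 the brightest probe gave 0.98, under the limit. Tfg, which organises exit sites, came close at 0.97 (SE 0.13, limma adjusted p = 0.0141) and passed without OASIS replicate 2 (1.09) or without Venus replicate 2 (1.02). The lowest was Preb, the exchange factor that loads the COPII GTPase Sar1, which read 3.64 and 3.54 with Venus and 4.40 and 4.09 with OASIS, a log2 fold change of 0.65 (SE 0.15, limma adjusted p = 0.039). Mia3, which exports collagen at these sites, rose by nearly the same amount, 0.67.

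Tethers hold an incoming vesicle before fusion. Of 8 genes, 6 rose, against 18.6% of all genes tested, and 2 did not pass the test, with a median log2 fold change of 0.67. The highest were genes of Golgi matrix proteins. Gorasp1, or GRASP65 (chromosome 9, band qF4), was dim, at -3.50 and -3.73 with Venus and -1.94 and -2.09 with OASIS, a log2 fold change of 1.60 (SE 0.13, limma adjusted p = 0.00603). Uso1, or p115 (chromosome 5, band qE2), read 2.502 and 2.477 with Venus and 3.90 and 3.76 with OASIS, a log2 fold change of 1.34 (SE 0.11, limma adjusted p = 0.00567), while the other 2 probes gave 0.65 and 1.70. Gorasp2, or GRASP55 (chromosome 2, band qC2), read 3.46 and 3.56 with Venus and 4.65 and 4.39 with OASIS, a log2 fold change of 1.01 (SE 0.13, limma adjusted p = 0.0127). Gorasp2 sat on the 2-fold limit. Its other 3 probes gave 0.86 to 0.91, and the brightest fell under the limit without Venus replicate 1 (0.97), without OASIS replicate 1 (0.89), with quantile normalization (0.992) and with scaling to the median (0.993). Golga2, or GM130, the golgin that GRASP65 and p115 bind, rose by 0.75.

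The 4 TRAPP subunits, parts of a tether that also activates Rab1, changed less than the matrix genes. Trappc2 and Trappc1 rose by 0.59 and 0.45, although a second Trappc2 probe gave -0.45 (limma adjusted p = 0.0688). Trappc4 had a log2 fold change of 0.064 with overlapping groups. Trappc3 (chromosome 4, band qD2.2) was lowest, at 2.41 and 2.39 with Venus and 2.14 and 2.20 with OASIS, a log2 fold change of -0.23 that did not pass the test (SE 0.099, limma adjusted p = 0.161). Differences between the sub-groups were not tested, since the genes of a sub-group are not replicates of each other.

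The array carries 104 probes for these genes, of which 96 were tested. Of the tested probes, 27 were past the threshold as higher and 1 as lower, against 5.89% and 2.47% of all probes tested. Through any probe 22 members passed, and 11 passed through every tested probe they have. The matching shares over all genes were not counted, and a gene with more probes passes more easily by any of them. The 5 that passed only through a probe other than the brightest were Arcn1, Sec22b, Tmed5, Lman2 and, in the lower direction, Ergic1. Of the 29 members with more than 1 tested probe, 24 had all of them on the same side of 0, and 17 had them within 0.5 of each other on the log2 scale. The exceptions in sign were Tmed5, Lman2, Tmed2, Trappc2 and Sec22c, the last with 0.31 by the brighter probe and -0.39 by the other.

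**Figure D3:**
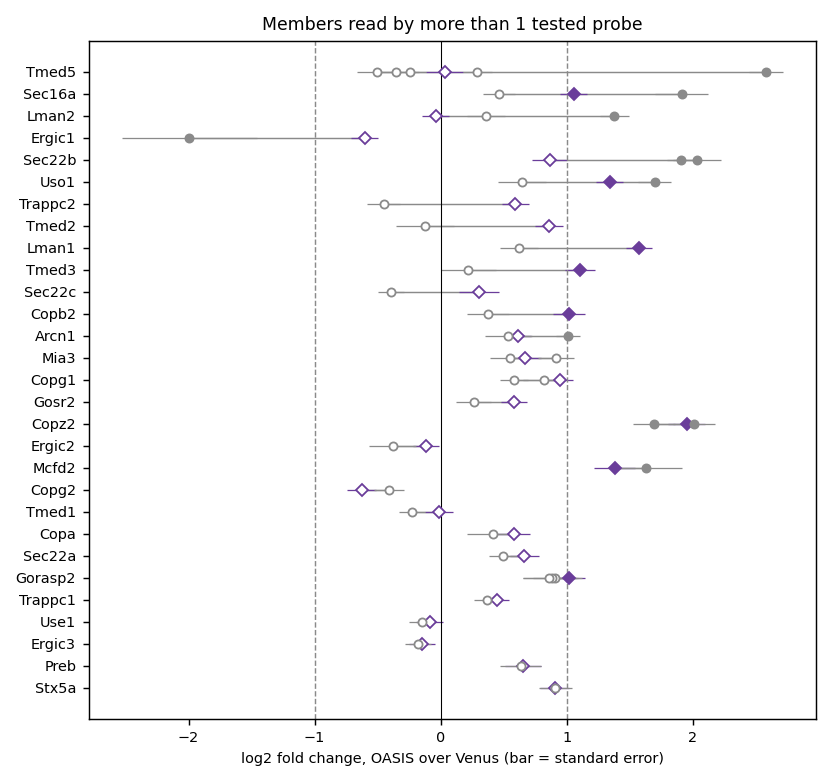
Each tested probe of the 29 genes with more than 1 tested probe is plotted by its log2 fold change, with its standard error as a bar. The genes are ordered by the distance between their extreme probes. Purple diamonds are the brightest probe of a gene, grey circles its other probes, filled symbols are past the threshold and dashed lines are the 2-fold limits. Tmed5 is widest, from -0.50 to 2.58, and Stx5a and Preb are narrowest.

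Several members are close relatives of each other, and within an array the difference between relatives is not moved by a scaling factor of that array. These pairs were chosen with the values known, so that their differences are described and not tested. Relative to its mean on the Venus arrays, the difference Copg1 minus Copg2 was 1.56 and 1.58 on the OASIS arrays, and 0.055 and -0.055 on the Venus arrays. The 2 γ subunits of the coat thus moved apart by almost the same amount in both OASIS samples, one up and one down. Copz2 minus Copz1, the 2 ζ subunits, stood at 1.08 and 0.96 with OASIS. Kdelr3 minus Kdelr1 stood at 1.12 and 1.30, whereas Kdelr3 minus Kdelr2 was 0.14 and 0.17 against -0.062 and 0.062 with Venus. Kdelr2 and Kdelr3 therefore stayed near each other while both left Kdelr1 behind.

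Among the SNAREs, Bet1 minus Bet1l, its Golgi relative, stood at 1.60 and 1.72, and Gosr2 minus Gosr1 at 0.97 and 1.18. Arf4 minus Arf1 stood at 1.25 and 1.09, and Gorasp1 minus Gorasp2 at 0.53 and 0.64, with the Venus arrays at 0.16 and -0.16. For the partners Lman1 and Mcfd2 the difference by their brightest probes was 0.046 and 0.34 with OASIS, against 0.0067 and -0.0067 with Venus. Of the pairs plotted, Sec22b minus Sec22c varied most between the OASIS arrays, at 0.86 and 0.26.

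**Figure D4:**
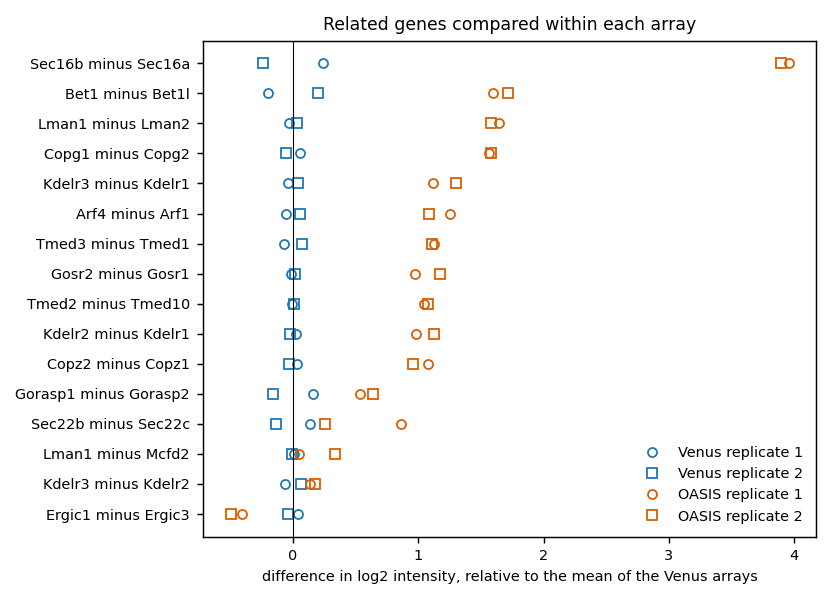
For 16 pairs of related or partner genes, the difference in log2 intensity between the brightest probes on each array is plotted relative to its mean on the 2 Venus arrays (blue Venus, orange OASIS, circles replicate 1, squares replicate 2). Sec16b minus Sec16a, at 3.96 and 3.90, rests on Venus arrays where Sec16b was not well above background, so that its place on the axis is not a measured size. Of the other pairs, Bet1 minus Bet1l lies farthest to the right, at 1.60 and 1.72.

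The surrounding machinery was read from a list of 70 further genes, of which 67 were tested. Of these, 11 were higher past the threshold and 0 lower (6.21% and 1.85% of all genes), 30 rose and 7 fell (18.6% and 18.1% of all genes), and the median log2 fold change was 0.28. Among the ARF GTPases and regulators, 3 of 10 passed the threshold: Arfgap3 (2.23) and Arfgap1 (1.21), which switch Arf off on COPI vesicles, and Arfgef2 (1.77), which switches Arf on. Of the 14 genes for fusion factors and the tether that receives COPI vesicles at the ER, 2 passed, both of that tether, Nbas (1.25) and Zw10 (1.25). Of the 8 subunits of the COG complex, a tether for traffic within the Golgi, Cog6 (1.33) passed and 3 rose in all, which for the threshold is near the share over all genes. Of 10 further golgins and Rab GTPases, Blzf1 (1.25), a partner of GRASP55, passed, again near that share, and 5 rose. The COPII coat had 4 of 11 genes past the threshold, with a median of 0.69.

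The medians of the further TRAPP subunits and cargo receptors lay below 0. Of 10 further TRAPP subunits, 0 passed the threshold, 1 rose and 5 fell, against 18.6% risen and 18.1% fallen of all genes. The median log2 fold change of the 10 was -0.24, with a range of -0.56 to 0.36. Of 4 further cargo receptors, which are relatives of Tmed and Lman genes, 0 passed, 0 rose and 1 fell, with a median of -0.27. So few genes, with 1 of 4 lower against 18.1% of all genes, are near the general share.

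**Figure D5:**
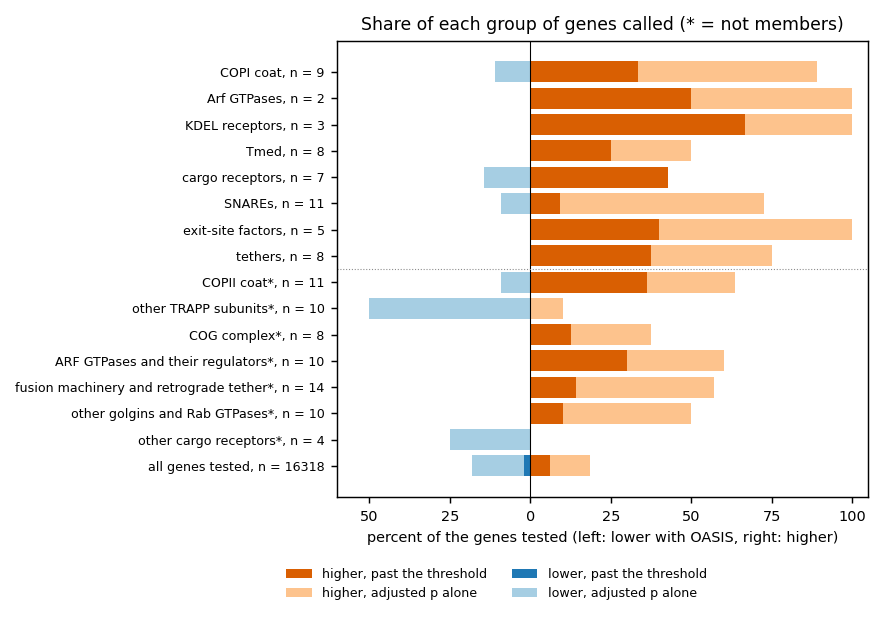
The percentage of tested genes called in each sub-group of the members (upper 8 bars), in each list of further genes (marked with asterisks) and among all genes tested is plotted, to the right for higher and to the left for lower with OASIS. Dark colours are genes past the threshold and pale colours genes with an adjusted p under 0.1 short of 2-fold. All tested KDEL receptors, Arf GTPases and exit-site factors lie to the right, and the further TRAPP subunits reach farthest to the left. Among the exit-site factors, Sec16b was tested through the OASIS arrays alone.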

How the data were processed

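RNA of 2 Venus and 2 OASIS samples was measured on 1-colour arrays. The authors deposited the spot intensity of each array as Agilent Feature Extraction 12.1.0.3 had corrected it for background, with marks for outliers and for spots well above background, and a table of scaled intensity that is the corrected intensity times 1 factor per array (0.697, 0.684, 0.663 and 0.698). The other deposited columns used were such marks, gene symbols and bands. The labels name QIAzol for RNA extraction and the methods RNeasy.

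Control and outlier spots were left out. Intensities were divided by the 75th percentile of their array, put on the log2 scale and averaged over the spots of each probe. A probe was well above background on an array where at least 0.5 of its spots were, and was tested where this held on both arrays of at least 1 group. A gene was read by its brightest tested probe over the 4 arrays. limma 3.58.1 in R 4.3.3 fitted OASIS against Venus with lmFit and eBayes, with Benjamini-Hochberg adjustment over all tested probes, and the script was tested on simulated data. With 2 arrays a group the number of arrays limits the precision. The smallest two-sided p of an exact permutation test is then 0.333, and limma reaches lower values by borrowing spread from all probes.

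The members and lists were chosen with earlier results of these data known. The genes described singly are members past the threshold by any tested probe, the highest and lowest member of each sub-group, members whose probes fall on different sides of the threshold, and up to 4 further pathway genes a list past the threshold. Copg1, Copz1, Copb1, Tmed1, Tmed2, Tmed9, Ergic2, Ergic3, Stx5a, Bet1l, Gosr2, Sec22c, Mia3, Tfg, Golga2 and the other TRAPP subunits were named in addition, after their values were seen. Neither sequences nor coordinates are given, since no genome was used here. Values of 1 podocyte marker are not reported here.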

Additional observations from a re-analysis of the deposited data

How the results depend on the processing

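Of 953 comparisons of a member with its value under an alternative, 918 kept direction and side of the threshold, 20 lost the threshold, 7 gained it and 8 changed sign, and of the 17 members past the threshold 13 passed under every alternative that gave them a value other than the methods' t-test and 8 under that one too. The 13 and the 8 include Sec16b, whose probe was tested through the OASIS arrays alone, so that its calls are no further support. Requiring detection on all 4 arrays gave Sec16b no value and left 16. The 17 became 15 with quantile normalization, with scaling to the median (Copb2 and Gorasp2 lost) and with the mean of a gene's probes, and 9 with the methods' t-test, which can use no spread but that of the 4 arrays (Copb2, Copz2, Arf4, Tmed3, Tmed7, Mcfd2, Gorasp1 and Gorasp2 lost). With the mean of a gene's probes 1 member was lower past the threshold (Ergic1). That mean includes its dim probe, which was not well above background with OASIS, while the brightest probe gave -0.60. By adjusted p alone, the t-test left 13 members higher and 0 lower, and normexp gave 5 lower. Over all genes, normexp gave 652 higher and 137 lower and the t-test 334 and 66, against 1014 and 302. Leaving out each array gave 14 to 21 members past the threshold, 23 to 39 higher and 0 to 3 lower by adjusted p alone (23 and 0 without Venus replicate 1, 24 and 0 without Venus replicate 2), and 988 to 1244 genes higher and 279 to 474 lower, the last without OASIS replicate 2.

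The Tmed median of 0.29 was 0.28 with quantile normalization and the authors' scaled values, 0.27 with scaling to the median, 0.32 with normexp and 0.33 with the mean of probes, which also gave 0.78 for the COPI coat, 0.57 for cargo receptors, 0.48 for SNAREs and 0.58 for tethers. The tether median was 0.63 with normexp. Leaving out each array gave medians of 0.65 to 0.81 for all members, 0.29 to 0.34 for Tmed and -0.090 to 0.017 for cargo receptors. The signs that changed were those of genes that had not passed the test: with the mean of probes Lman2 (0.57) and Sec22c (-0.045), and, with each array left out, Tmed1 (-0.096 to 0.065, above 0 without Venus replicate 1, at 0.015, and without OASIS replicate 2), Tmed5 (-0.12 to 0.18, below 0 without Venus replicate 1, at -0.044, and without OASIS replicate 2), Lman2 (-0.099 to 0.017, above 0 without Venus replicate 1) and Trappc4 (-0.037 to 0.17, below 0 without Venus replicate 2). Why these values moved was not tested beyond the construction of each alternative. Reading genes by their brightest RefSeq probe was added after the data were seen and left the 17 members past the threshold.

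Sample numbers 1 and 2 occur in both groups, and the labels do not say that a number marks a shared culture or batch. Deviations of same-numbered arrays correlated at 0.26 over tested probes. With the replicate number as a replicate block 17 members were past the threshold as higher and 0 as lower, and 40 and 3 passed by adjusted p alone.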
